A study of Drosophila melanogaster with 8 samples.

Results

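Guidance signalling in embryonic macrophages was examined through the PDGF/VEGF-like receptor gene Pvr with its ligand genes Pvf1, Pvf2 and Pvf3, and the TNF ligand gene egr (eiger) with its receptor genes grnd (grindelwald) and wgn (wengen). The genes were chosen by name, and all 7 were found among the 17494 genes of the deposited tables. Macrophages (hemocytes) tagged with 3xMcherry were purified by FACS out of stage 11 Drosophila melanogaster embryos kept at 29°C, and their polyA RNA was sequenced. The 4 CG9005 mutant libraries were compared with 4 WT libraries, and both groups carry the tag. The sources used here do not give the CG9005 allele, the promoter that drives mCherry or whether replicates came from separate collections, so p-values measure only the spread between these libraries.

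Pvr is a receptor tyrosine kinase that dimeric Pvf ligands activate. In fly embryos it is known for the survival of hemocytes and for steering their migration, with Pvf2 and Pvf3 laid down by tissues along the routes the cells take. Eiger is the TNF of the fly and signals through the receptors Grindelwald and Wengen, classically to the JNK kinase cascade. Eiger and Grindelwald have also been tied to the tension of the ectoderm that macrophages squeeze past during germband invasion.

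Transcript levels are given as transcripts per 1000000 (TPM), a measure per gene length, so that levels of different genes can be compared within a library. Depth was 15782570 to 18942786 reads per library, recovered from the TPM values. All 14 macrophage marker genes examined were at or above 1 TPM in every library, with a summed level of 7447 to 9256 TPM in the mutant libraries and 5838 to 9519 TPM in the WT libraries. Most of that sum was NimC4, a receptor for the uptake of dying cells, at 5041 to 6881 TPM in mutant and 3603 to 7492 TPM in WT libraries. Of the 14, limma called the scavenger receptor gene Sr-CI higher in the mutant (log2 difference 0.91, limma adjusted p = 0.00082) and gcm2 lower (−0.93, limma adjusted p = 0.043). Over all tested genes 1.67% were called. Of 5 crystal cell genes, PPO1 was called lower in the mutant (−1.88, limma adjusted p = 0.0028). Differences of lz, PPO2, CG17109 and peb were −0.39, −0.35, −0.82 and −0.72, and none of these was called. The groups were thus not alike in every blood cell marker, and the part of this in the values of the 7 genes was not tested. Of 3 fat body genes, Fbp1 and Lsp2 were at 0 in every library, while apolpp was at 8.59 to 44.6 TPM in mutant and 7.45 to 21.7 TPM in WT libraries. Whether fat body cells were present was not tested, and the zeros do not show that they were absent. Some genes that mark other tissues were also present, among them the neuronal gene elav at 46.0 to 61.0 TPM in mutant and 42.7 to 69.4 TPM in WT libraries. Elav was the highest of the neuronal markers examined. Scrt was at 8.88 to 13.0 TPM in mutant and 6.95 to 35.5 TPM in WT libraries. Fne, nSyb and Syt1 did not exceed 7.76, 2.97 and 1.92 TPM in any library. CG9005 mRNA itself was at 89.1 ± 12.2 TPM in the mutant and 87.8 ± 18.4 TPM in WT (SD, n = 4 each), so its level does not check the labels.

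None of the 6 genes that could be tested passed the test between the genotypes, and grnd, which was too low for the test across genes, did not pass an exact permutation test either. Pvr, Pvf1, Pvf2, Pvf3, grnd and wgn had lower means in the mutant and egr a higher mean, but in every case mutant and WT libraries overlapped. Limma called 131 of 7827 tested genes at an adjusted p under 0.05, a background of 1.67% (0.882% higher and 0.792% lower in the mutant), and 0 of the 6 tested members. At an unadjusted p under 0.05 limma found 0 of the 6 against a background of 12.1%, and voom on recovered reads likewise gave 0 calls and 0 at an unadjusted p under 0.05. The background of voom was 1.13% of genes called (0.631% higher and 0.503% lower in the mutant) and 11.1% at the unadjusted level. The median log2 difference of the 6 was −0.17, beside −0.06 over all tested genes, of which 58.3% were below 0. In the authors' deposited table the 7 genes had log2 fold changes of −0.91 to 0.36 with adjusted p = 1.00 for each, on that table's own scale.

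**Figure D1:**
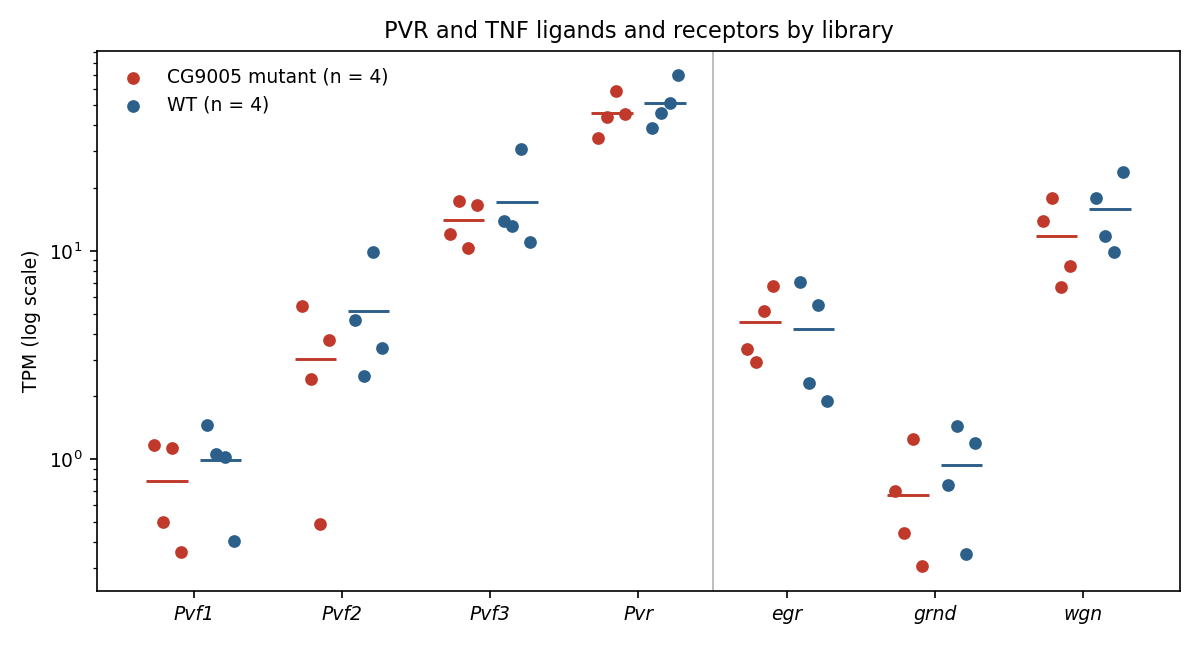
TPM on a log axis for each ligand and receptor gene, with 1 point per library (CG9005 mutant in red, WT in blue, n = 4 each) and a bar at each group mean. Pvr is the highest gene in all 8 libraries, Pvf1 and grnd lie near 1 TPM, and the groups overlap for every gene.

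The receptor gene Pvr (FBgn0032006) lies on chromosome 2L from 8220980 to 8239878 on the minus strand (BDGP6), with 6653 bases of exon over 13 annotated transcripts and no exon base shared with another gene. It stood at 34.8, 43.7, 58.7 and 45.2 TPM in mutant replicates 1 to 4, against 38.8, 46.0, 51.4 and 69.6 TPM in WT replicates 1 to 4. The highest library was WT replicate 4 and the lowest mutant replicate 1, and 3 of the 4 mutant values fell inside the WT range. Means were 45.6 ± 9.89 TPM in the mutant and 51.4 ± 13.1 TPM in WT (SD, n = 4 each). The log2(TPM + 1) difference was −0.16 (limma adjusted p = 0.840), and its 95% interval ran from −0.64 to 0.31. That interval spans ratios of 0.642 to 1.24 on the TPM + 1 scale. In bulk samples such as these, fewer cells of a type and less RNA per cell cannot be told apart.

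Each Pvr value rested on 2983 to 5736 reads, and the spread between libraries was far wider than counting error. The variance between libraries was 191 times the counting variance in the mutant and 280 times in WT. Pvr was higher than 78.5% to 85.5% of the genes detected in a library.

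Among 19 receptor tyrosine kinase genes, Pvr ranked 1 to 3 in every library. It was first in mutant replicates 3 and 4 and WT replicate 4. Its company at the top was drl, a Ryk-type receptor known from axon guidance, at 40.5 ± 9.82 TPM in the mutant and 53.8 ± 6.48 TPM in WT, and InR, the insulin receptor gene, at 42.6 ± 1.24 TPM in the mutant and 45.7 ± 15.8 TPM in WT (SD, n = 4 each). The order of these 3 genes changed from library to library, so they do not differ beyond their spread. By the mean over all 8 libraries Eph, an ephrin receptor gene, came next at 12.8 ± 1.55 TPM in the mutant and 14.6 ± 4.64 TPM in WT. The FGF receptor gene htl was at 14.9 ± 2.92 TPM in the mutant and 11.2 ± 1.41 TPM in WT.

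**Figure D2:**
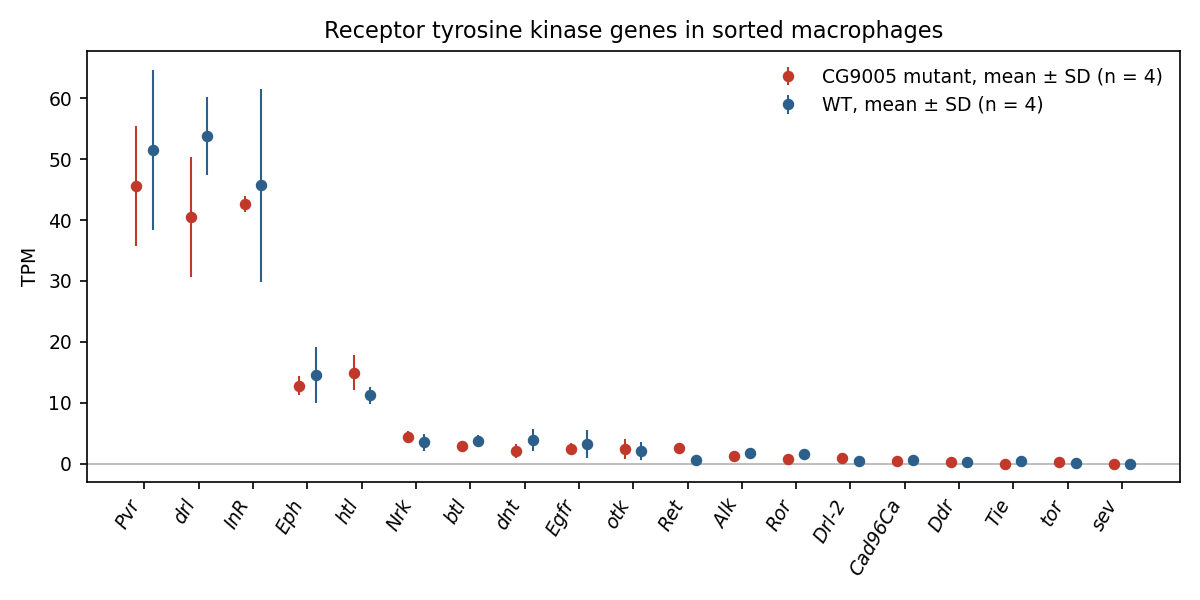
Mean TPM with SD (n = 4 each) of Pvr and 18 other receptor tyrosine kinase genes, CG9005 mutant in red left of WT in blue, ordered by mean over all libraries. Pvr, drl and InR stand well above the other 16 genes, of which Eph and htl are the highest.

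Pvf3 (FBgn0085407; chromosome 2L, 7098188 to 7157695, minus strand) gave most of the Pvf ligand mRNA in these libraries. Mutant replicates 1 to 4 held 12.0, 17.3, 10.4 and 16.6 TPM, against 13.9, 13.1, 30.7 and 11.0 TPM in WT replicates 1 to 4. WT replicate 3 stood apart above all other libraries, while the remaining 7 lay between 10.4 and 17.3 TPM. The means were 14.1 ± 3.42 TPM in the mutant and 17.2 ± 9.09 TPM in WT (SD, n = 4 each). The log2 difference was −0.19 (limma adjusted p = 0.885), and its 95% interval ran from −0.88 to 0.51. Without WT replicate 3 the difference was 0.12, so its direction rests on that library. Between 850 and 2078 reads stood behind each value.

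Pvf2 (FBgn0031888; chromosome 2L, 7069536 to 7084635, minus strand) lies 13552 bases from Pvf3, with 2 annotated genes wholly between them. Its libraries spread widely, with 11.2-fold between the highest and lowest mutant library and 3.92-fold in WT. Mutant replicates 1 to 4 held 5.46, 2.43, 0.486 and 3.74 TPM, against 4.68, 2.52, 9.86 and 3.42 TPM in WT. The lowest library was mutant replicate 3 with 14 reads, an exact Poisson 95% interval of 0.266 to 0.816 TPM, and the highest was WT replicate 3 with 225 reads. These intervals cover counting error only. The other 6 libraries ran from 2.43 to 5.46 TPM with both genotypes mixed.

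The Pvf2 means were 3.03 ± 2.10 TPM in the mutant and 5.12 ± 3.29 TPM in WT (SD, n = 4 each). The log2(TPM + 1) difference of −0.65 was the largest in size among the 6 tested members (limma adjusted p = 0.673), and its 95% interval ran from −1.74 to 0.43. It was −0.24 without mutant replicate 3 and −0.33 without WT replicate 3. Exons of Pvf2 share 11 bases with Ugt307A1 on the opposite strand.

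WT replicate 3, the library with the most Pvf2 and Pvf3, also held the highest summed levels of epidermal, neuronal, tracheal, muscle and midline marker genes. It also had the highest macrophage sum (9519 TPM) and the lowest salivary gland sum (478 TPM), and it was not the highest for glia, gut, fat body or crystal cell markers. Most of the salivary gland sum was CrebA, at 491 to 618 TPM in mutant and 461 to 555 TPM in WT libraries. Sage and eyg of that list did not exceed 12.3 and 4.68 TPM in any library. The 4 epidermal markers (grh, shg, crb and sha) summed to 31.8 to 58.3 TPM in mutant libraries and 34.8 to 103 TPM in WT libraries. WT replicate 3 had 103 TPM and mutant replicate 3, the library with the least Pvf2 and Pvf3, had 31.8 TPM. Mutant replicate 3 was not the lowest library for the neuronal, tracheal, muscle or midline sums, at 67.8, 8.14, 118 and 3.50 TPM. The 5 neuronal markers summed to 65.0 to 84.7 TPM in mutant and 54.3 to 114 TPM in WT libraries, again with WT replicate 3 at the top. The 3 tracheal markers summed to 7.09 to 10.7 TPM in mutant and 10.5 to 17.7 TPM in WT libraries. The 6 muscle markers summed to 109 to 147 TPM in mutant and 119 to 161 TPM in WT libraries, and the 2 midline markers to 3.50 to 5.69 TPM in mutant and 2.83 to 7.98 TPM in WT libraries. Among these markers sim was at 0 in 3 libraries and Syt1 and Mhc in 1 library each. None of these 5 sums separated the genotypes without overlap. Their part in the Pvf2 and Pvf3 values was not tested.

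Pvf1 (FBgn0030964; chromosome X, 18832682 to 18842901, plus strand) was scarce. Mutant replicates 1 to 4 held 1.17, 0.501, 1.13 and 0.360 TPM, against 1.46, 1.06, 1.03 and 0.406 TPM in WT. Each genotype thus had libraries above 1 TPM and its lowest value in replicate 4. The means of 0.790 ± 0.419 TPM in the mutant and 0.987 ± 0.434 TPM in WT (SD, n = 4 each) differed by −0.15 on the log2 scale (limma adjusted p = 0.921), and the 95% interval ran from −0.94 to 0.63. With 14 to 59 reads per library, counting error is a larger part of the spread than for Pvr, yet the variance between libraries was still 8.23 times the counting variance in the mutant and 6.88 times in WT.

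Of the summed Pvf ligand mRNA, Pvf3 made up 64.5% to 86.5% in mutant libraries and 69.4% to 78.6% in WT libraries. Pvf2 contributed 4.06% to 29.3% in mutant and 15.1% to 23.7% in WT libraries, and Pvf1 1.74% to 9.41% in mutant and 2.47% to 7.26% in WT libraries. The sum of the 3 ligands was 12.0 to 20.7 TPM in mutant and 14.8 to 41.6 TPM in WT libraries, and Pvr exceeded it in every library. Pvr was 1.86 to 4.90 times the summed ligands in mutant and 1.24 to 4.69 times in WT libraries.

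**Figure D3:**
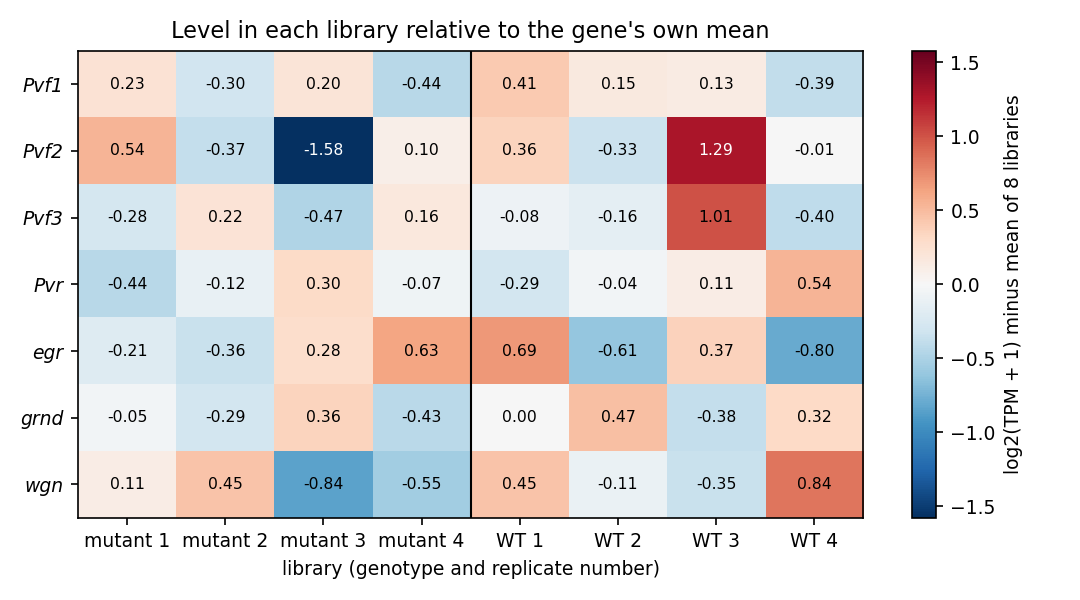
Level of each gene (rows) in each library (columns, CG9005 mutant left of the line, WT right of it) as log2(TPM + 1) minus the gene's mean over the 8 libraries, with the value printed in each cell. Pvf2 and Pvf3 are highest in WT replicate 3 (1.29 and 1.01) and lowest in mutant replicate 3 (−1.58 and −0.47), and no row is uniformly higher or lower on either side of the line.

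The TNF ligand gene egr (FBgn0033483; chromosome 2R, 10078366 to 10084210, plus strand) was present at a few TPM in the libraries of sorted macrophages. Mutant replicates 1 to 4 held 3.36, 2.93, 5.12 and 6.77 TPM, against 7.11, 2.31, 5.49 and 1.90 TPM in WT. All 4 mutant values lay inside the WT range, which held both the highest and the lowest library. Means were 4.55 ± 1.76 TPM in the mutant and 4.20 ± 2.52 TPM in WT (SD, n = 4 each). The log2 difference was 0.17 (limma adjusted p = 0.920), and its 95% interval ran from −0.70 to 1.05. It was −0.01 without mutant replicate 4 and −0.06 without WT replicate 4. Between 51 and 224 reads stood behind each value, and no exon base is shared with another annotated gene.

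The TNF receptor genes were unlike in level. Wgn (FBgn0030941; chromosome X, 18624042 to 18634908, minus strand), a TNF receptor gene also known for roles apart from eiger, stood at 13.9, 17.8, 6.70 and 8.41 TPM in mutant replicates 1 to 4, against 17.9, 11.8, 9.88 and 23.8 TPM in WT. Mutant replicates 3 and 4 were the lowest libraries and WT replicate 4 the highest, with mutant replicates 1 and 2 inside the WT range. The means were 11.7 ± 5.11 TPM in the mutant and 15.9 ± 6.31 TPM in WT (SD, n = 4 each). The log2 difference was −0.42 (limma adjusted p = 0.703), its 95% interval ran from −1.19 to 0.34, and each library had 238 to 765 reads.

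Grnd (FBgn0032682; chromosome 2L, 18485417 to 18488021, plus strand), the receptor through which eiger drives JNK signalling in fly epithelia, was at 0.701, 0.443, 1.25 and 0.307 TPM in mutant replicates 1 to 4 and at 0.753, 1.43, 0.351 and 1.19 TPM in WT. High and low libraries occurred in both genotypes. Only 3 libraries reached 1 TPM, so grnd stayed out of the fit across genes, which asked for 4. The means were 0.675 ± 0.417 TPM in the mutant and 0.933 ± 0.479 TPM in WT, a log2 difference of −0.20 (two-sided exact permutation p = 0.400, n = 4 each, smallest possible p 0.0286). Each library had 8 to 41 reads of grnd, and 275 of its 2100 exon bases overlap kon on the opposite strand. The sources used here do not give the strand setting of the counting, so reads of these genes cannot be told apart there.

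Within a library, wgn was 5.35 to 40.3 times grnd in the mutant and 8.23 to 28.1 times in WT. Over all 8 libraries the members fell into levels. Pvr was above every other member in 8 of 8 libraries. Pvf3 and wgn followed and did not differ beyond their spread, with Pvf3 the higher in 4 of 8 libraries. Egr and Pvf2 came next, with egr the higher in 4 of 8. Pvf1 and grnd were lowest, with Pvf1 the higher in 5 of 8, and only in mutant replicate 3 did Pvf2 drop below them.

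**Figure D4:**
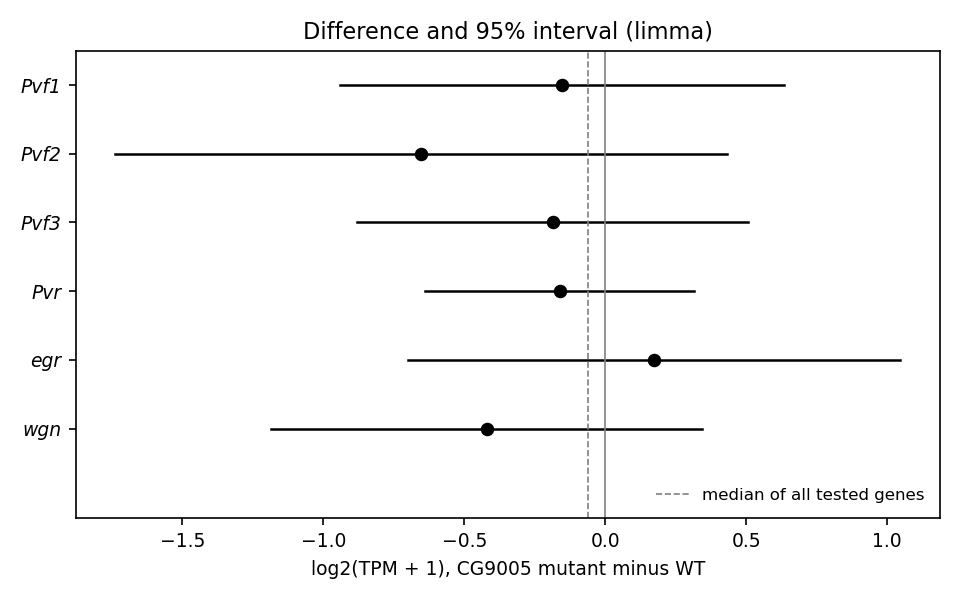
Difference in log2(TPM + 1), CG9005 mutant minus WT, for the 6 tested genes (points) with 95% limma intervals (bars); the dashed line is the median of all tested genes (−0.06). Every interval includes 0, the narrowest being that of Pvr and the widest that of Pvf2.

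Downstream of Pvr, no gene of a list of 29 adaptor, Ras-ERK, Rac and PI3K genes was called. Of the 28 measured and tested, limma called 0 (background 1.67%), with 2 at an unadjusted p under 0.05 (background 12.1%). Voom gave 0 calls (background 1.13%) and 3 at that unadjusted level (background 11.1%). The median log2 difference was −0.12, with 20 below and 8 above 0. Over all tested genes the median was −0.06 and 58.3% were below 0. Rl, the ERK kinase gene of the Ras pathway, was at 6.16, 7.90, 6.07 and 7.51 TPM in mutant replicates 1 to 4 and at 2.60, 5.74, 4.08 and 1.50 TPM in WT. For rl the lowest mutant library was above the highest WT library, a separation that 7.77% of all tested genes showed in either direction. Its log2 difference of 0.91 (95% interval 0.18 to 1.64) did not pass (limma adjusted p = 0.296).

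Mbc, a guanine nucleotide exchange factor component that activates Rac, was at 66.7 ± 8.31 TPM in the mutant and 88.5 ± 11.6 TPM in WT (log2 difference −0.40, limma adjusted p = 0.322). Sos, the Ras exchange factor, was at 1.92 ± 0.535 TPM in the mutant and 3.72 ± 1.21 TPM in WT (−0.67, limma adjusted p = 0.434). The Rac GTPase genes that act below Mbc were among the most abundant of the list. Rac1 was at 411 ± 24.5 TPM in the mutant and 456 ± 72.1 TPM in WT (limma adjusted p = 0.733), and Rac2 at 463 ± 55.1 TPM in the mutant and 577 ± 114 TPM in WT (limma adjusted p = 0.494). The libraries of Src42A, a Src family kinase gene picked out after its values were seen, did not overlap either, at 2.55 ± 0.403 TPM in the mutant and 3.95 ± 1.18 TPM in WT (limma adjusted p = 0.595). Groups did not overlap for 2 of the 28 tested genes of this list, against 7.77% of all tested genes.

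Of 23 genes of the TNF and JNK cascade and the cell death genes it controls, 22 were tested. Limma called 0 (background 1.67%), with 4 at an unadjusted p under 0.05 (background 12.1%). Voom called 0 as well (background 1.13%), with 3 at that unadjusted level (background 11.1%). The median log2 difference was −0.20, with 16 below and 6 above 0, beside a median of −0.06 and 58.3% below 0 over all tested genes. Wnd, a mixed-lineage kinase gene at the top of the JNK cascade, stood at 1.82, 2.38, 2.49 and 3.09 TPM in mutant replicates 1 to 4, against 6.67, 4.83, 13.5 and 4.39 TPM in WT. The highest mutant library was below the lowest WT library, but the log2 difference of −1.17 did not pass (95% interval −1.94 to −0.40, limma adjusted p = 0.163). Groups did not overlap for 2 of the 22 tested genes, against 7.77% of all tested genes. Tab2, the adaptor of the kinase Tak1, was at 7.61, 6.62, 5.49 and 8.763 TPM in mutant replicates 1 to 4 and at 12.0, 16.5, 20.7 and 8.766 TPM in WT.

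The highest mutant and the lowest WT library of Tab2 thus nearly met, and the log2 difference was −0.88 (limma adjusted p = 0.214). Kay, the Fos subunit of the AP-1 factor that JNK activates, was at 60.8 ± 8.59 TPM in the mutant and 83.9 ± 9.06 TPM in WT (−0.46, limma adjusted p = 0.235). The JNK gene bsk was at 91.0 ± 28.9 TPM in the mutant and 145 ± 58.3 TPM in WT (limma adjusted p = 0.481). The JNK phosphatase gene puc, a common readout of the cascade, was at 69.2 ± 8.27 TPM in the mutant and 88.0 ± 23.6 TPM in WT (limma adjusted p = 0.615). The adaptor gene Traf4 was at 90.9 ± 11.0 TPM in the mutant and 82.2 ± 13.6 TPM in WT (limma adjusted p = 0.771).

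**Figure D5:**
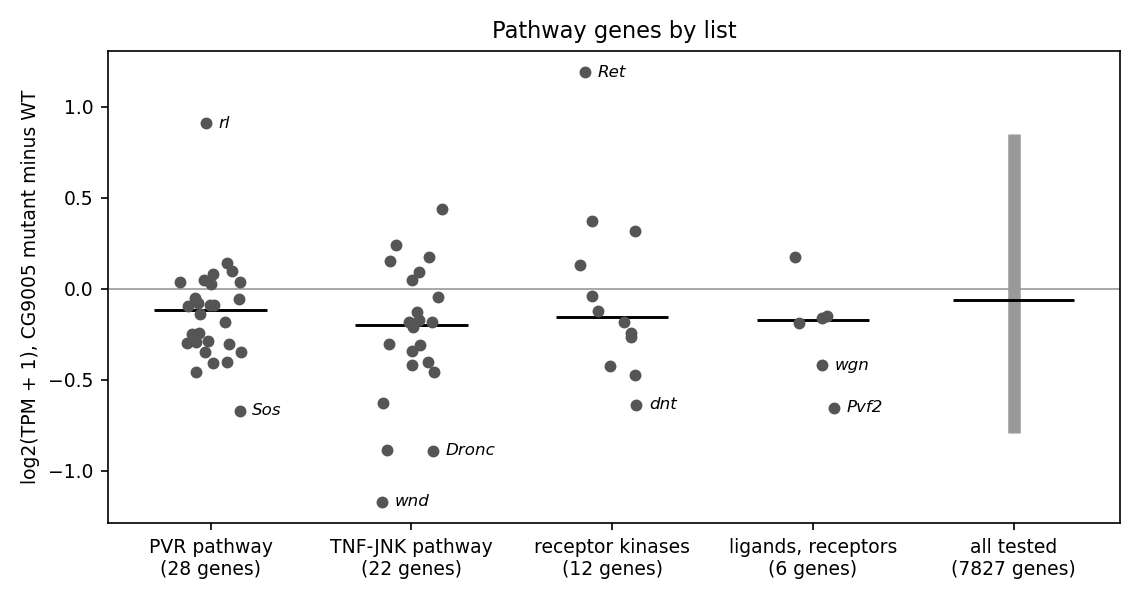
Difference in log2(TPM + 1), CG9005 mutant minus WT, for tested genes of 3 lists and of the ligand and receptor set, 1 point per gene with a bar at the median; the grey bar spans the 5th to 95th percentile of all 7827 tested genes (−0.79 to 0.85). No plotted gene was called by limma, and the 2 largest differences of each list are named.

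Of 18 other receptor tyrosine kinase genes 12 were tested, and limma called 0 (background 1.67%), with 1 at an unadjusted p under 0.05 (background 12.1%). Voom called 0 (background 1.13%), with 2 at that unadjusted level (background 11.1%). That gene for limma was Ret, a receptor known from neurons, at 2.60, 2.46, 2.04 and 2.88 TPM in mutant replicates 1 to 4 and at 0.644, 0.150, 0.488 and 0.936 TPM in WT. The lowest mutant library exceeded the highest WT library for Ret, whose log2 difference was 1.19 (95% interval 0.48 to 1.89, limma adjusted p = 0.116). Groups did not overlap for 1 of the 12 tested genes, against 7.77% of all tested genes. Limma without an intensity trend called Ret (adjusted p = 0.0247). Over the same 7827 genes that setting called fewer than the 131 of the main fit, so the 1.67% is not its background. Among all settings tried, Ret without the trend was the only call of a gene from the 3 lists. Drl and htl had log2 differences of −0.42 and 0.37 (limma adjusted p = 0.420 and 0.563).

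Tie, another receptor tyrosine kinase gene, was singled out after its values were seen. It had 0 reads in all 4 mutant libraries, against 34, 33, 12 and 32 reads in WT replicates 1 to 4, a mean of 0.404 TPM. Against an assumed floor of 3 reads per mutant library (0.0429 TPM), the WT mean was 9.41-fold higher. That ratio leaves out the spread of the WT libraries, which ran from 0.211 to 0.493 TPM. Tie was too low for the main test here. Without a filter on low values, limma tested all 18 genes of this list, Tie among them, and called 0. In the authors' deposited table Tie had an adjusted p = 0.0476. It was the 1 gene to pass of 17 receptor kinase genes listed there, where 0.579% of all 11058 genes passed.

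The genes with the library pattern most like that of Pvr, by root mean square distance of centred log2(TPM + 1) over the 8 libraries, were alphaCOP (a coat subunit of Golgi vesicles), Ada2b (a subunit of histone acetyltransferase complexes) and rpk (a sodium channel gene), at distances of 0.0879, 0.0900 and 0.0910. The median distance from Pvr over 7826 genes was 0.445. The nearest gene to Pvf3 was CG8677 at 0.135, to Pvf1 Spps at 0.135, to wgn CG12106 at 0.181 and to egr CG5916 at 0.217. The nearest to Pvf2 was bowl, a zinc finger factor gene, at 0.335. These distances are not scaled to each member's own spread, so they do not rank the members by how closely they were tracked. That spread was a root mean square of 0.294 for Pvr, 0.306 for Pvf1, 0.444 for Pvf3, 0.530 for egr, 0.534 for wgn and 0.778 for Pvf2.

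The members lie on chromosomes that differ in their rate of called genes. Pvr, Pvf2, Pvf3 and grnd lie on 2L, where 3.12% of tested genes were called, egr on 2R with 3.04%, and Pvf1 and wgn on X with 0.598%. Over all tested genes the rate was 1.67%, and rates on other chromosomes were not taken. None of the tested members was called. CG9005 itself lies on 2R.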

How the data were processed

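The deposited tables hold TPM, scaled by the authors to 1000000 in every library. The submitters' processing notes name R 3.4.4, limma, edgeR, HTSeq 0.5.4p3 and STAR 2.5.1b with build BDGP6. The sources used here do not give their roles or the strand setting. Log2 fold changes and p-values of the authors' deposited comparison table were quoted only where named. The labels' stage field counts from 11 to 18 across libraries, whereas the growth protocol gives stage 11; it served only as an alternative covariate.

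The main test was limma 3.58.1 (R 4.3.3) with genotype as sole term and an intensity trend, fitted to log2(TPM + 1) of genes reaching 1 TPM in 4 or more libraries (3 of 7 when 1 was left out), with Benjamini-Hochberg adjustment over all of them. That scale understates changes of low genes. Reads were recovered as TPM times union exon length (Ensembl release 115, BDGP6) over 1 step per library. Of values above 0, 98.8% to 99.0% were whole within 0.05 reads. Members, lists and alternatives were chosen with earlier results of these data known. Genes named from each list are the 3 with the smallest p plus any called. Rac1, Rac2, bsk, puc, Traf4, InR, Eph, Src42A, Tie and elav were named for their role or pattern after their values were seen. The marker genes NimC4, Sr-CI, gcm2, PPO1, apolpp, scrt and CrebA were likewise named after their values were seen. Other genes of the neuronal, crystal cell and salivary gland lists were given beside them. Grnd was tested by exact permutation over 70 assignments. Tried as alternatives were leaving out each library, a replicate block, the stage field, other filters, pseudocounts and normalisations, limma without trend or with array weights, and voom. Of the listed symbols, Sprd, Bc and sal had no unique match, and phl was read as Raf. Replicate numbers did not pair the samples.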

Additional observations from a re-analysis of the deposited data

Results flagged for a closer look

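Pvf3 in WT replicate 3 stood at 30.7 TPM, against 13.9, 13.1 and 11.0 TPM in the other WT libraries. On the TPM scale the gap to the nearest of these was 0.851 of the group's range, above Dixon's 95% critical value for 4 samples. As log2(TPM + 1) about the gene's mean, WT replicates 1 to 4 were at −0.08, −0.16, 1.01 and −0.40. The rule was not applied on that scale, so the flag holds for TPM only. Pvf3 in WT replicate 3 was the 1 such value among 14 groups checked (7 genes in 2 genotypes), and chance alone flags about 5% of groups. The same library was highest for Pvf2 (9.86 TPM) and for the summed epidermal, neuronal, tracheal, muscle, midline and macrophage markers. It was lowest for the summed salivary gland markers, a sum that was mostly CrebA. The part of these sums in the value was not tested.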

How the results depend on the processing

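No member was called under any alternative that gave it a value. The signs of Pvr, Pvf2 and grnd held throughout, with log2 differences of −0.29 to −0.01, −0.94 to −0.24 and −0.36 to −0.08 when 1 library was left out. Without 1 library Pvf3 ranged from −0.35 to 0.12, egr from −0.063 to 0.43, Pvf1 from −0.31 to −0.03 and wgn from −0.64 to −0.21. With the stage field as covariate, which largely follows genotype, Pvr was at −0.995 (limma adjusted p = 0.411), past an unadjusted level of 0.05. Pvf1 was then at 0.64 and wgn at 0.050, and the cause was not tested. The genes called numbered 131 in the test as reported. They numbered 9 with the stage field covariate, 52 with the replicate block, 76 without a filter and 82 with a filter of 5 TPM. Leaving out 1 library gave 71 (without mutant replicate 4) to 110. Array weights gave 178, median centring 136 and quantile normalisation 130. The other settings gave 88 (voom) to 120 (pseudocount 5). The receptor kinase list had 1 call (Ret) without the trend and the lists had 0 calls otherwise. Same-numbered libraries had deviation correlations of 0.08, −0.15, −0.04 and −0.04, so the numbers do not pair them; with the replicate block Pvr had a log2 difference of −0.16 (limma adjusted p = 0.821), and no member was called. The filter of 5 TPM left out Pvf1, Pvf2 and grnd. Grnd could not be fitted under the block, stage, normalisation, trend, weight and filtered voom settings. Voom on every gene with a read, chosen after seeing the data, gave grnd −0.44 (limma adjusted p = 0.897). Grnd and Pvf1, with 8 to 59 reads per library, are limited by depth as well as by spread.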
